A study of Mus musculus with 8 samples.

Results

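The nuclear factor I (NFI) family comprises the transcription factor genes Nfia, Nfib, Nfic and Nfix, and its acetylation at histone H3 lysine 9 (H3K9ac) was mapped in mouse cerebellum. All 4 members were taken by name from the 21887 protein-coding genes of the annotation, and every peak overlapping a gene or lying within 10 kb of it was assigned to that gene's locus. This gave 100 of the 52676 deposited peaks, which merged into 42 of the 19505 regions formed by overlapping peaks of any library. The chromatin immunoprecipitation libraries came from C57BL/6 mice aged 9 weeks, 4 from animals heterozygous for the allele labelled 266Q knock-in and 4 from wild type animals, which the series describes as symptomatic mice of a spinocerebellar ataxia type 7 (SCA7) model and their littermates. In this disease a glutamine tract in ataxin-7, a subunit of a histone acetyltransferase complex, is expanded, and the series asks how the acetylation mark differs between the genotypes. The tissue was whole cerebellum, so a mark carried by fewer cells and a weaker mark in each cell cannot be told apart. Whether tissue of several animals was pooled is not stated.

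NFI proteins bind DNA as dimers, at a palindrome whose arms read TTGGC and GCCAA, and can activate or repress transcription. In the developing cerebellum Nfia, Nfib and Nfix are known for driving the maturation of granule neurons, the most abundant neurons of the tissue, and Nfia and Nfib also act in the formation of astrocytes. Nfic is best known from tooth root formation. H3K9ac marks active promoters and some enhancers, so peaks within these long genes may lie at internal start sites as well as at gene ends.

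Replicates 1 and 2 of each genotype had long lists of broad peaks (7735 to 11409 peaks, 9.09 to 14.5 Mb covered), and replicates 3 and 4 short lists of narrow peaks (1266 to 5571 peaks, 0.236 to 0.991 Mb). They are called the long and the short lists here, and values within the long lists are given beside the pooled ones. All 12 granule cell markers had a peak in all 4 long lists, against 2 of 8 Purkinje cell markers, 0 of 10 markers of astrocytes and Bergmann glia, 0 of 7 of oligodendrocytes, 1 of 5 of microglia and 0 of 8 genes of other tissues. Over all protein-coding genes the share was 33% (7220 of 21887). Pcp2, Aqp4 and P2ry12, which mark Purkinje cells, astrocytes and microglia, had no peak in any library, as had 8740 of the 21887 genes. The lists hold no read counts, and the depth of each library is unknown.

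Start sites within the family differed in sequence and in acetylation. Of the RefSeq start sites in the GRCm38.p6 promoter table, 1 belonged to Nfia, 1 to Nfic and 4 to Nfix, and none to Nfib. RefSeq lists 9 transcripts for Nfia, 10 for Nfib, 4 for Nfic and 29 for Nfix, so other starts may be missing here. The windows below are shown to set a start with no peak beside starts inside peaks. Each gives the 250 bases before the start (a peak was counted where it overlapped these or the next 50 bases), and capitals mark the GC box GGGCGG and the NFI core TTGGC on either strand.
Nfia, chr4:97581693-97581942, plus strand: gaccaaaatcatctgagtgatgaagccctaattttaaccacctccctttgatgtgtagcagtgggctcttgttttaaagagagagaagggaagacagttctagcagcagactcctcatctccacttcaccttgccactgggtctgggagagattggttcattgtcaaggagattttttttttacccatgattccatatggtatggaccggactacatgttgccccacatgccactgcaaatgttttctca
Nfic, chr10:81427174-81427423, minus strand: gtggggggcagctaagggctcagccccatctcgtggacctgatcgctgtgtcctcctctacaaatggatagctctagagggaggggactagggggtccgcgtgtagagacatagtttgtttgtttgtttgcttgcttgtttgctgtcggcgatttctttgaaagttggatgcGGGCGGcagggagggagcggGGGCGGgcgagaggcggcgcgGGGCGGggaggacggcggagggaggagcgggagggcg
Nfix, chr8:84773411-84773660, minus strand: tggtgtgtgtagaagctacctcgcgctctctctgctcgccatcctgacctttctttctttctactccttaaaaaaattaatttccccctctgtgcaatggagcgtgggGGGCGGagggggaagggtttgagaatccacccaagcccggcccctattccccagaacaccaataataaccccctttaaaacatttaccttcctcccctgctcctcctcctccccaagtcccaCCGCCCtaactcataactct
Nfix, chr8:84780083-84780332, minus strand: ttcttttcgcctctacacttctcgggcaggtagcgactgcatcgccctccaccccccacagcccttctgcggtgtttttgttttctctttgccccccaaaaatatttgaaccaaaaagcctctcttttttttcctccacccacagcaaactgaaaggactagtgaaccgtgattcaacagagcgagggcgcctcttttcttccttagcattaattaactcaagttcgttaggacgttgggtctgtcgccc

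The Nfia window held 1 CG dinucleotide and no peak in any library. The Nfic window held 19 CG dinucleotides and 3 GC boxes, and a peak overlapped it in all 4 long lists. The first Nfix window held 7 CG dinucleotides and 2 GC boxes and was also covered in all 4 long lists, as was the neighbouring start at 84772875, whose window held 1 CG dinucleotide and 1 NFI core. The Nfix window further from the domain, with 11 CG dinucleotides and neither motif, was overlapped in knock-in replicate 2, at bases after the start only, and in wild type replicate 2. The remaining Nfix start, at 84775828, had 4 CG dinucleotides, 1 NFI core and no peak. The order of the CG counts was thus not the order of the number of libraries with a peak. Over all 32841 windows of the table the median was 6 CG dinucleotides, and it was 23 in the 5051 windows (15.4%) with a peak in all 4 long lists and 3 in the 22485 windows with no peak in any library. The GC box was found in 32.7% of all windows and the NFI core in 41.5%. The complete NFI palindrome, with any 5 bases between its arms, was found in 12 of the windows and in none of the NFI family. The TATA box TATAAA, found in 12.4% of all windows, and the cyclic AMP response element TGACGTCA, found in 1.55%, were not in the family's windows either. Both strands were searched, and a match describes letters only.

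**Figure D1:**
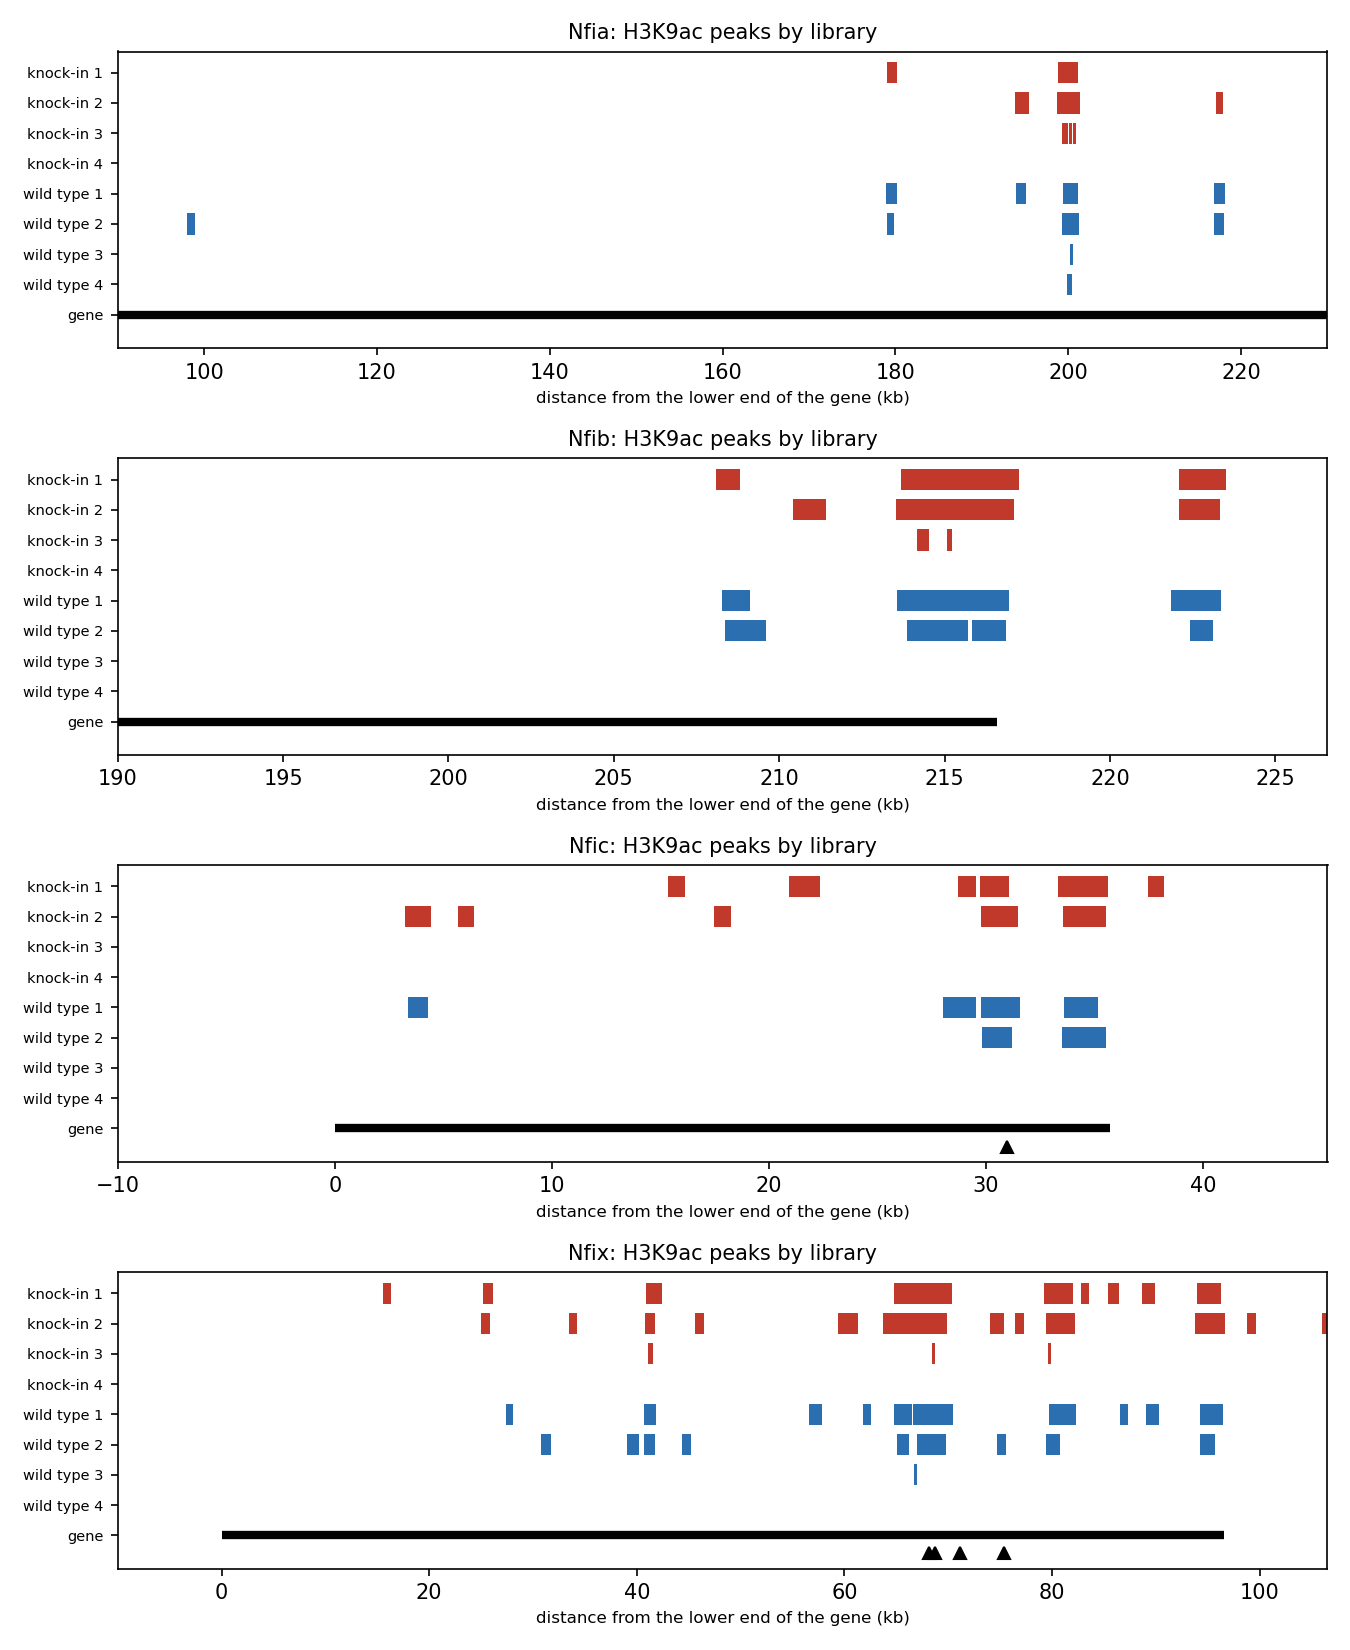
Each bar is an H3K9ac peak (drawn at a minimum visible width), with libraries in rows, knock-in red and wild type blue, against the distance in kb from the gene end with the lower coordinate; the black line is the gene and triangles are start sites of the promoter table. The Nfia and Nfib panels show part of the locus: the Nfia start, 1 narrow peak of wild type replicate 4 near the upper end of Nfia and the stretch of Nfib without peaks lie outside. Nfix carries peaks along most of its length, whereas Nfia and Nfib are marked at few places.

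Nfix had more separate H3K9ac regions than the other members and nearly all other genes. Nfix lies on chromosome 8 at 84704712 to 84801238 (mm10), 96.5 kb in all, and its locus held 23 merged regions, of which 20 were internal, 1 was at a gene end (within 1 kb) and 2 were in the flank. Of the 13147 protein-coding genes with a region in their locus, 2 had as many as 23, Nfix itself and Rbfox3 with 25. Rbfox3 encodes the neuronal nuclear protein NeuN, was chosen for this count after its value was seen, and spans a longer stretch of chromosome 11 (118489760 to 118911597). The median over those 13147 genes was 1 region. The knock-in long lists held 9 and 12 Nfix peaks, the wild type ones 11 and 9. Counting Nfix, only 4, 3, 3 and 1 genes had as many in these lists, against a median of 1 among genes with a peak.

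**Figure D2:**
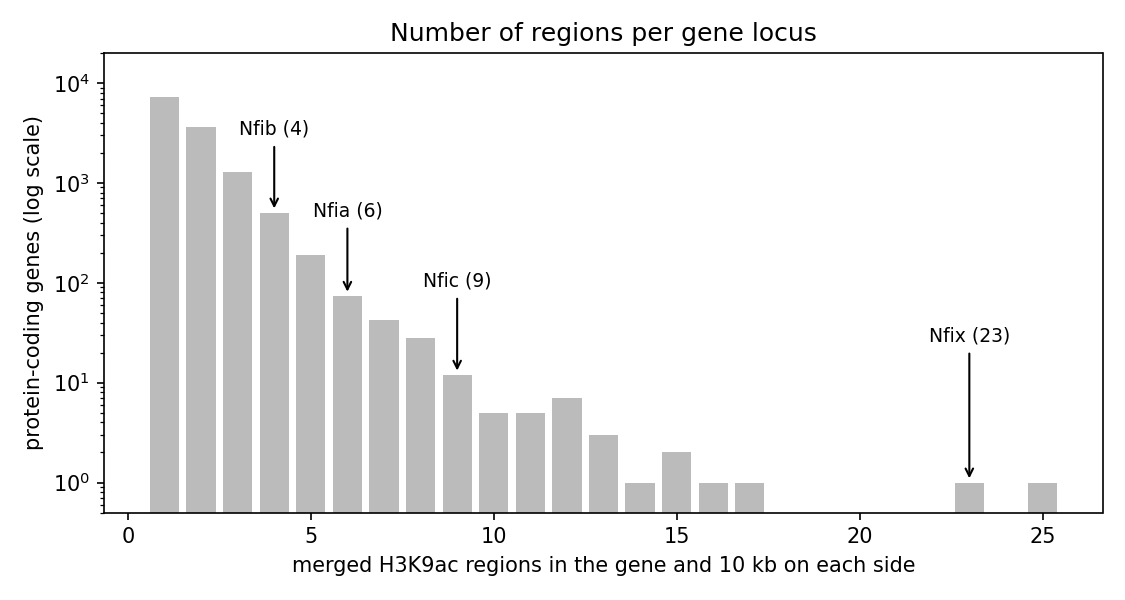
The bars give the number of protein-coding genes (log scale) by the number of merged H3K9ac regions in the gene and 10 kb on each side, for the 13147 genes with at least 1 region. Nfib, Nfia and Nfic lie at 4, 6 and 9 regions and Nfix at 23, next to the right end of the distribution.

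Most of the separate Nfix regions came from 1 library. Of its 23 regions, 16 were found in a single library, and over the genome 8571 of 19505 regions (43.9%) were. The 4 Nfix regions held by all long lists were an internal region at 84745430 to 84747152, a broad internal domain at 84768440 to 84775185, an internal region at 84783952 to 84786973 and the region at the upper gene end, 84798452 to 84801378. Of all genes, 52 (0.238%) had at least 2 internal regions held by all long lists and 6 (0.0274%) at least 3, with Nfix the member in both counts. These shares are over all 21887 protein-coding genes, of which 7220 had a peak in all long lists and 8740 in no library. They were not matched for length, and the median length of genes with a region was 24349 bp.

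The broad internal domain was the longest region of the family. Here and below, long-list values are given for replicate 1 and then replicate 2. The knock-in long lists covered 5600 and 6171 bp of the domain, the wild type ones 5680 and 3957 bp, and the genotypes overlapped. In both knock-in long lists it was called as 1 peak, and in both wild type ones as 2 peaks. The gap was very short in wild type replicate 1, from 84771240 to 84771267. In wild type replicate 2 it was longer, from 84770966 to 84771683. How often regions over the genome were split in this way was not counted. Among the short lists, knock-in replicate 3 had a peak of 129 bp there and wild type replicate 3 one of 150 bp, and both replicates 4 had none. The domain contains the Nfix starts at 84772875 and 84773410. The highest-scoring peak of the locus lay in this domain in knock-in replicate 2 and in both wild type long lists, at score percentiles 94.1, 95.1 and 93.02 within those lists. In knock-in replicate 1 it lay at the upper gene end, at percentile 93.9. The score is the authors' value per peak, and these percentiles rank it among the peaks of the same list.

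The other shared Nfix regions were narrower. At the upper gene end the knock-in long lists covered 2336 and 2927 bp, the wild type ones 2166 and 1435 bp, and no short list had a peak. At 84783952 to 84786973 the knock-in values were 2801 and 2785 bp, the wild type ones 2542 and 1399 bp, and knock-in replicate 3 had 141 bp. At 84745430 to 84747152 they were 1539 and 963 bp against 1116 and 1080 bp, with 311 bp in knock-in replicate 3. The lowest of the long lists was wild type replicate 2 at the first pair of these regions and knock-in replicate 2 at the last, and the genotypes overlapped only at the last. A region at 84729680 to 84730897 was held by both knock-in long lists (1046 and 859 bp) and by no wild type library, for which the conditional exact test gave p = 0.355 (adjusted p = 1). No peak lay in the flank that holds the neighbouring genes Lyl1 and Trmt1. The peaks in the opposite flank, at 84803524 and 84810663, were found in knock-in replicate 2 only.

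Nfic, the shortest member, was marked at its upper end and at an internal start. It lies on chromosome 10 at 81396191 to 81431919, 35.7 kb in all, and its locus held 9 regions, 7 of them internal and 5 found in 1 library. As many as 9 regions were found at 39 genes. The region at the upper end, 81429496 to 81431814, was 2319 and 1990 bp long in the knock-in long lists, and 1578 and 2047 bp in the wild type ones, so the genotypes overlapped. The internal region at 81425923 to 81427743, which contains the start at 81427173 shown above, had 1343 and 1699 bp under knock-in peaks, 1793 and 1357 bp under wild type peaks, and the genotypes overlapped here too. At the upper end the knock-in score percentiles were 93.7 and 59.3, the wild type ones 91.2 and 91.3. At the internal start they were 36.7 and 52.3 for knock-in, 69.1 and 67.3 for wild type. The upper end thus ranked above the internal start within each of the 4 long lists. Between lists a percentile also depends on the other peaks of the list. A score of 110.84 was at percentile 36.7 in knock-in replicate 1, and one of 115.78 at 57.5 in wild type replicate 1. How many regions ranked higher in both wild type long lists was not counted. Neither region, nor any other at Nfic, had a peak in a short list. No peak lay over the neighbouring genes Smim24, Gm48552 and Dohh in the lower flank.

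Nfib was marked around its upper end, with the rest of the gene free of peaks. It lies on chromosome 4 at 82290173 to 82506751, 217 kb in all, and held 4 regions, all between 208 and 224 kb from its lower end. The region at the upper end, 82503694 to 82507431, spanned 3578 and 3569 bp in the knock-in long lists, and 3390 and 2863 bp in the wild type ones. Knock-in replicate 3 had 499 bp in 3 narrow peaks, and the other short lists had none. Both knock-in long lists lay above both wild type ones here, and wild type replicate 2 was the lowest, with the region split into 2 peaks. The score percentiles were 99.03 and 99.4 for the knock-in long lists, 99.7 for wild type replicate 1 and 93.7 for the stronger peak of wild type replicate 2.

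A region 5.26 kb beyond the upper end of Nfib, at 82512008 to 82513689, was held by all 4 long lists as well. It lies within Gm11266, a long noncoding RNA gene whose lower end lies next to Nfib. The knock-in peaks there covered 1428 and 1238 bp, the wild type ones 1516 and 719 bp, and the genotypes overlapped. An internal region at 82498274 to 82499773 had 720 bp in knock-in replicate 1 and, in the wild type long lists, 866 and 1244 bp. Knock-in replicate 2 had a peak of 989 bp nearby, at 82500593 to 82501581.

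Nfia carried its main H3K9ac region far inside the gene, with no peak at either end. It is the longest member, at 97578066 to 98118876 on chromosome 4, 541 kb in all, and all 21 of its peaks, in 6 regions, were internal. The main region, 97776713 to 97779394, begins 199 kb from the lower end, on which side the table's Nfia start also lies. It also overlaps the upper end of Gm38709, a long noncoding RNA gene at 97750647 to 97777423. A window at the gene ends alone would have missed it. Whether the region lies at a start of another of the 9 Nfia transcripts cannot be told from the 1 start given. Among the 7220 genes with a locus peak in all 4 long lists, 598 (8.28%) had their highest-scoring peak internal in all 4, Nfia being the member for which this held.

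The main Nfia region was found in 7 of 8 libraries, which 348 of 19505 regions (1.78%) reached or passed. Replicates 1 to 4 of the knock-in covered 2403, 2682, 938 and 0 bp of it, those of the wild type 1808, 2000, 155 and 254 bp. Within the long lists both knock-in values lay above both wild type values, within the short lists the genotypes overlapped, and knock-in replicate 4 was the library without a peak. In the long lists its score percentiles were 99.4 and 99.1 for knock-in, 99.04 and 99.4 for wild type. In knock-in replicate 3 the strongest of its 4 narrow peaks was at 97.5. It ranked lower in wild type replicates 3 and 4, where its strongest peaks were at percentiles 17.5 and 41.8.

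Of the weaker Nfia regions none was in all 4 long lists. Regions at 97756932 to 97758231 and 97794914 to 97796181 were each found in both wild type long lists and 1 knock-in long list. The region at 97771860 to 97773468 was found in knock-in replicate 2 and wild type replicate 1. Wild type replicate 2 alone had a peak at 97676063 to 97677026, and wild type replicate 4 alone a narrow one at 98114293 to 98114415.

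**Figure D3:**
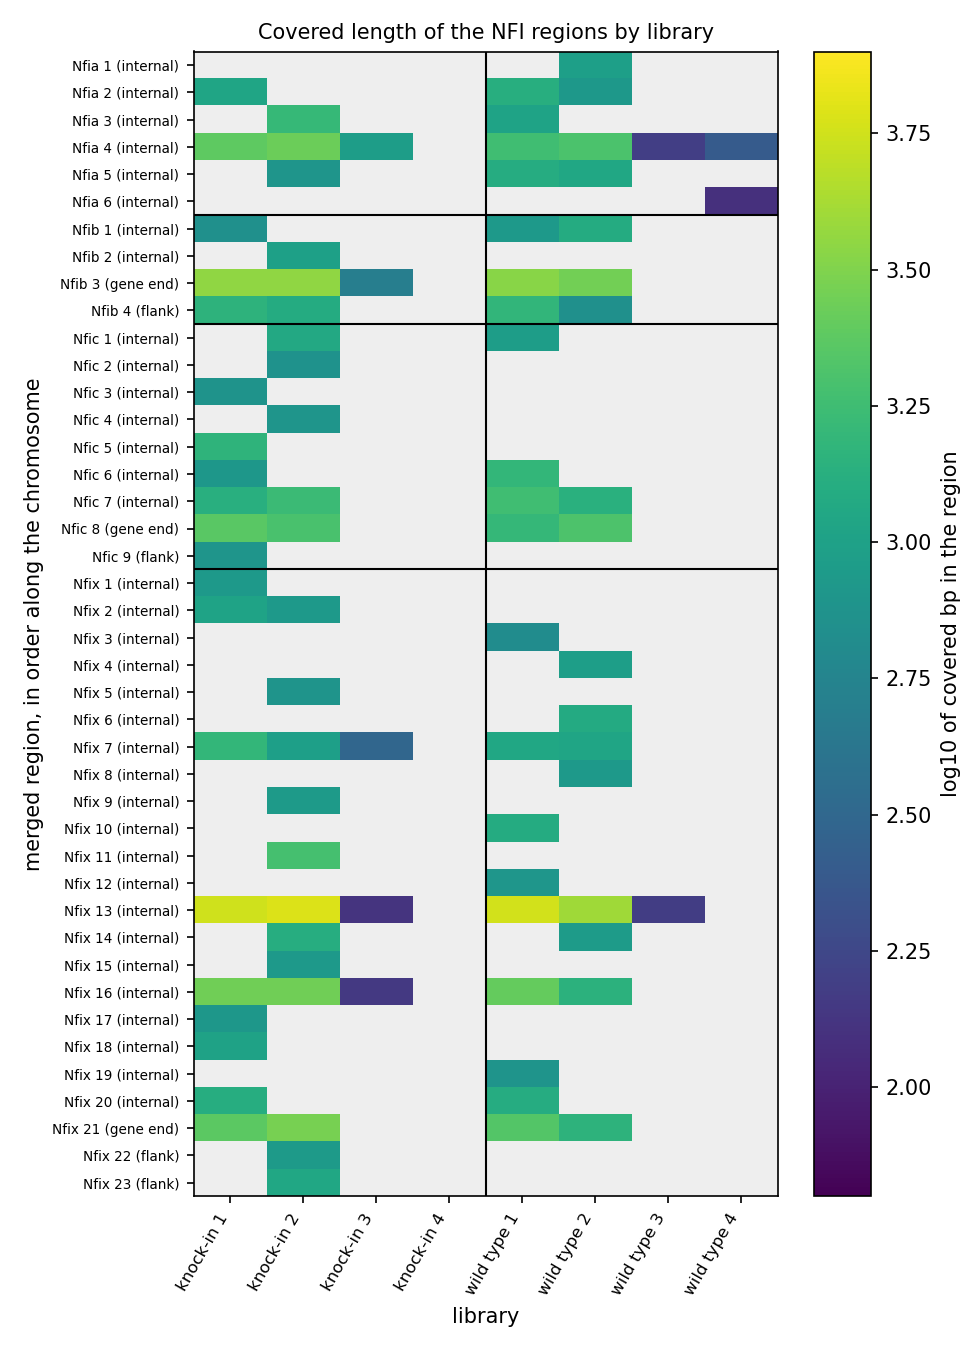
Rows are the 42 merged regions of the family in chromosomal order within each gene, columns are the 8 libraries, and colour is log10 of the base pairs covered by peaks of that library, with grey for no peak. The rows with 4 filled long lists are the 9 shared regions, 1 at Nfia, 2 each at Nfib and Nfic and 4 at Nfix; knock-in replicate 4 is grey throughout.

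Across the family, 9 of the 42 regions were held by all 4 long lists, against 28.1% of all merged regions, and 24 came from 1 library. Of the 9, 5 were internal, 3 were at a gene end and 1 was in a flank. A total of 823 genes had an internal region held by all long lists, and 3 of the 4 NFI genes did, all but Nfib. These 823 were 3.76% of all 21887 genes, of which only 7220 had a peak in all long lists, and gene length was not matched. At 4 of the 9 shared regions (the main Nfia region, the upper ends of Nfib and Nfix and the Nfix region at 84783952) both knock-in long lists covered more than both wild type ones, as at 35.3% of the 5484 regions held by all long lists, and the reverse, found at 4.8% of those, held at 0 of the 9.

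Per length, Nfix and Nfic were the most densely marked members. The covered share of the locus over the 4 long lists was 14.2 ± 3.20% (SD, n = 4) at Nfix, 10.4 ± 3.08% (SD, n = 4) at Nfic, 2.34 ± 0.199% (SD, n = 4) at Nfib and 0.842 ± 0.153% (SD, n = 4) at Nfia. Each of these means pools both genotypes. The ranges of Nfix and Nfic overlapped between libraries, though Nfix was above Nfic within each of the 4. The ranges of Nfic, Nfib and Nfia did not overlap. Nfia and Nfib are the longest members, so their low shares were measured over long stretches without peaks.

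No difference between knock-in and wild type passed the test at an NFI locus over all 8 libraries. The spread in this test was mostly that between the long and the short lists, which both genotypes share. At Nfix the peaks of knock-in replicates 1 to 4 covered 14.8, 17.9, 0.499 and 0% of the locus, those of the wild type replicates 13.9, 10.1, 0.129 and 0%. Both knock-in long lists lay above both wild type ones, while the short lists of both genotypes were near 0. The knock-in mean was 8.31 ± 9.39% (SD, n = 4), the wild type mean 6.04 ± 7.08% (SD, n = 4), and the two-sided exact permutation p was 0.571. At Nfic the knock-in shares were 13.4, 11.4, 0 and 0%, the wild type ones 10.5, 6.11, 0 and 0%, and again both knock-in long lists were the higher. The means were 6.21 ± 7.21% (SD, n = 4) and 4.15 ± 5.11% (SD, n = 4), and the exact permutation p was 0.657.

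At Nfib the knock-in shares were 2.42, 2.45, 0.211 and 0%, the wild type ones 2.44, 2.04, 0 and 0%, so the long lists of the genotypes overlapped. The means were 1.27 ± 1.35% (SD, n = 4) and 1.12 ± 1.30% (SD, n = 4), and the exact permutation p was 0.657. At Nfia the knock-in shares were 0.620, 0.904, 0.167 and 0%, the wild type ones 0.966, 0.876, 0.0276 and 0.0672%, and the genotypes overlapped in the long and in the short lists. The means were 0.423 ± 0.414% (SD, n = 4) and 0.484 ± 0.506% (SD, n = 4), and the exact permutation p was 0.8286. The mean was higher in knock-in at 3 of the 4 NFI loci and at 76.5% of all loci with a peak. The lowest p that 4 libraries against 4 allow in this test is 0.0286. Run on all 13147 loci with a peak it called 0% after Benjamini-Hochberg adjustment and 2 loci (0.0152%) before it, and the adjusted p was 1 for each NFI gene. A locus at the lowest p could pass the adjustment only if a large share of all loci reached that p too. Leaving out 1 library turned the sign of the difference at each of the 4 genes, at Nfix without knock-in replicate 2 (-1080 bp) and at Nfic without knock-in replicate 1 (-185 bp). At Nfia it turned without knock-in replicate 3 or 4 or wild type replicate 1 or 2 (up to 555 bp), and at Nfib without knock-in replicate 1 or 2 or wild type replicate 3 or 4 (down to -574.5 bp). As measured in all libraries, these differences in covered length were 2639 bp at Nfix, 1150 bp at Nfic, -346 bp at Nfia and 355.8 bp at Nfib.

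Between libraries of the same number, knock-in minus wild type was 1066, 9058, 431 and 0 bp at Nfix for replicates 1 to 4. At Nfic it was 1628, 2972, 0 and 0 bp. Neither gene had a pair with the lower value in knock-in. At Nfib the differences were -46, 970, 499 and 0 bp, and at Nfia -1945, 155, 783 and -377 bp, with pairs in both directions. An exact permutation test within the pairs gave p = 0.25 at Nfix and p = 0.5 at Nfic, each the lowest that pairs with a difference of 0 leave attainable, so it could not have passed at either gene.

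**Figure D4:**
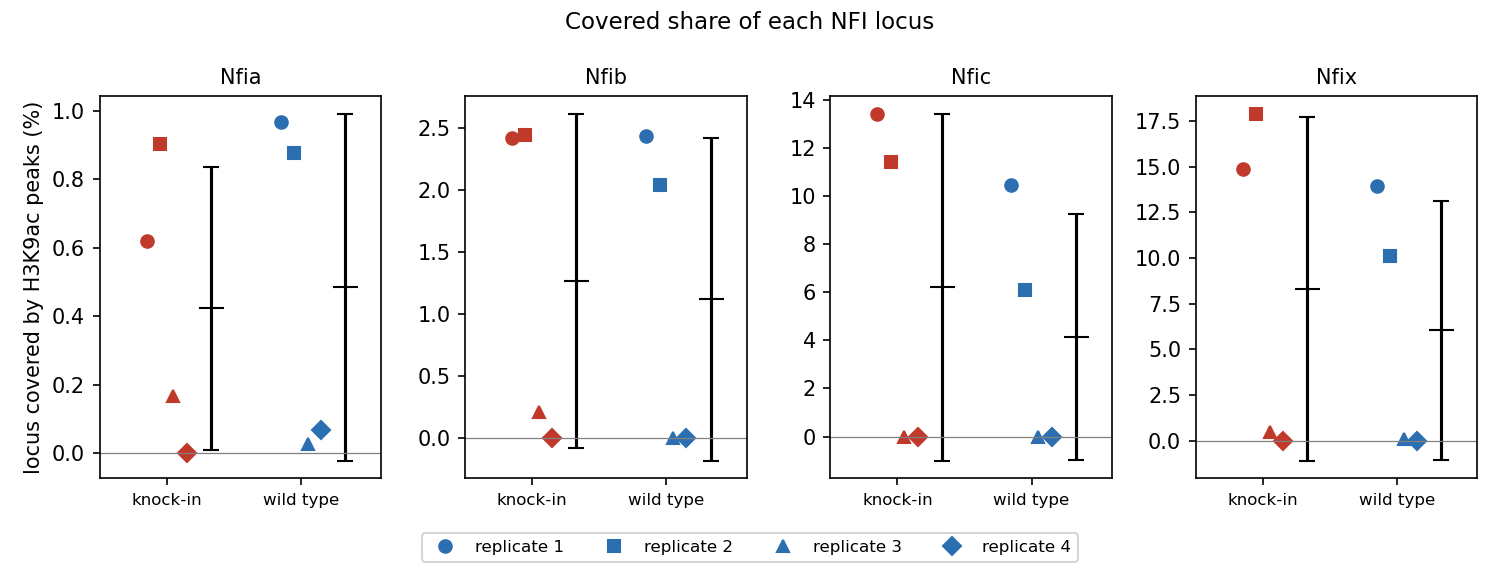
Points give the percentage of each locus (the gene and 10 kb on each side) covered by H3K9ac peaks in each library, by genotype, with marker shapes for replicates 1 to 4; black bars are the mean and SD of 4 libraries, and the vertical scale differs between panels. In each panel replicates 1 and 2 lie far above replicates 3 and 4, and the bars of the genotypes overlap.

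The long-list values of the genotypes at the NFI loci were set beside those at all loci. Of the 12714 loci with a peak in a long list, 4089 (32.2%) had both knock-in long lists above both wild type ones, as 2 of the 4 NFI loci did, and 370 (2.91%) the reverse. The knock-in to wild type ratio of mean covered length in the long lists was 1.498 at Nfic, 1.36 at Nfix, 1.09 at Nfib and 0.827 at Nfia. The median ratio over 9988 loci was 1.24, as was the ratio of all covered sequence (14.5 against 11.7 Mb). Among those loci the NFI genes lay at percentiles 69.5, 60.8, 33.4 and 10. The lowest exact permutation p for 2 libraries against 2 is 0.333, so no test within the long lists could pass.

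When the covered length was expressed per Mb of peaks in the same list, Nfix had 1193 and 1444 bp in the knock-in long lists and 1139 and 1296 bp in wild type, which overlapped. Nfic had 515 and 442 bp against 410 and 375 bp, with both knock-in libraries above both wild type ones, as at 17.5% of loci. Nfia had 240 and 351 bp against 380 and 541 bp, with both wild type libraries above both knock-in ones, as at 12.6% of loci, and the same held at Nfib, with 395 and 402 bp against 405 and 531 bp. Over all 8 libraries the exact permutation p of this measure was 0.486 at Nfia, 0.914 at Nfib, 0.657 at Nfic and 0.743 at Nfix. This scale was chosen after seeing the data.

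The number of libraries with a peak did not pass a test either. A locus peak was present at Nfia in 3 libraries of the knock-in and 4 of the wild type, with 3 and 2 at Nfib, 2 of each genotype at Nfic and 3 of each at Nfix. The conditional exact test, which weighs each library by its overall odds of having a peak, gave a p and an adjusted p of 1 for each. It called 0% of 13046 loci with adjustment and 88 (0.675%) without, and Fisher's exact test called 0 with adjustment and 2 without. All 4 NFI loci had a peak in all long lists, as 7220 genes (33%) did, and Nfia, in 7 libraries, was among 558 genes (2.55%) found in 7 or more. Of the merged regions, 0% of 19438 passed the conditional exact test with adjustment and 53 (0.273%) without, none of these at an NFI locus, where the smallest p was 0.355. In this conditional exact test a region found in all 4 knock-in and 0 wild type libraries would have p = 0.00331, and the reverse p = 0.000773. Neither would pass the adjustment unless many regions had so low a p. The smallest p over all regions was 0.0113.

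Genes tied to NFI function in earlier work were described by their counts alone, beside those over all genes. Of 8 NFI-linked granule neuron genes, 6 had a locus peak in all 4 long lists, with a median of 5 libraries. Over all genes 33% had a peak in all long lists, the median was 2 libraries, and 8740 of 21887 genes had a peak in none. These are the values beside which the counts of the next lists stand as well. Grin2c, an NMDA receptor subunit of mature granule cells, and Wnt7a, a secreted signal, were found in 3 libraries of each genotype. Etv1, a transcription factor of granule neurons, was found in 5 libraries, and Efnb1 and Nfatc4 in none. Of 10 NFI-linked glial genes 1 had a peak in all long lists, Hes1, a Notch target repressor, found in 5 libraries. The median of this list was 1 library. Apcdd1 and Mmd2 were found in 3 libraries each, and Sox9, Notch1 and Aqp4 had no peak. Of 6 NFI partners in neural stem cells, 3 of them also in the glial list, Hes1, Bbx and Ezh2 had a peak in all long lists, and Sox9, Insc and Notch1 had none in any library. No gene of these lists passed the conditional exact test over all genes, with or without adjustment.

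Other transcription factors of the granule lineage were set beside the family without a test. The median was 7.5 regions for the NFI family, 5 for the 5 Zic genes, 2 for 15 granule lineage factors and 1 over all genes. These counts are per locus, whatever its length. Per 100 kb of locus, Nfix had 19.7 regions and Nfic 16.1, but Nfib 1.69 and Nfia 1.07. The median per 100 kb was 2.97 over genes with a region. The median covered length of a locus in the long lists was 5651 bp for the NFI family, 11778 bp for the Zic genes, 1709 bp for the granule lineage factors and 300.2 bp over all genes. These are lengths per locus and not per base, and the close pairs Zic1 and Zic4, and Zic2 and Zic5, share peaks. Zic2 and Zic5 were found in 7 libraries each, as was Nfia. Of the granule lineage factors, 8 of 15 had a peak in all long lists, and Neurod2 was found in 6 libraries. Atoh1, Mycn and Nhlh1 were found in none, as were 8740 of all 21887 genes.

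Genes whose covered length had the most similar percentiles among all protein-coding genes were found by the mean absolute difference over the 8 libraries. Like percentiles need not mean like lengths. At Bcl9l the knock-in long lists covered 6153 and 6108 bp, the wild type ones 7387 and 5214 bp. At Nfix these were 17300 and 20837 bp, and 16234 and 11779 bp. For Nfix they were Bcl9l, Lrrc4b and Zmiz1, at 0.309, 0.485 and 0.559 percentile points. For Nfic they were Trp53bp1, Kdm6b and Dph1, at 0.128, 0.138 and 0.139. For Nfib they were Pde10a, Mxi1 and Trappc3, at 0.251, 0.267 and 0.268, and for Nfia Eif4g3, Slc35f3 and Srebf2, at 0.835, 0.906 and 0.930. Differences this small require that these genes share with their NFI gene the libraries in which any peak was found. That sharing follows from how the genes were chosen and is no separate result. The values compare 8 lists of unequal length. At Eif4g3, for instance, knock-in replicates 1 to 4 covered 4955, 3907, 914 and 0 bp, the wild type replicates 5115, 3801, 176 and 430 bp. At Nfia the knock-in values were 3475, 5070, 938 and 0 bp, the wild type ones 5420, 4915, 155 and 377 bp.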

How the data were processed

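H3K9ac peak lists of 8 cerebellar libraries were used, grouped by genotype and numbered from the sample titles. Bowtie2 and mm10 are named in the submitters' processing notes, and per the file headers the authors called peaks with MACS in Galaxy, list by list. Neither its version and settings nor an input control is given in the sources used here. Each deposited peak score has no stated scale and a minimum of about 50 and was used for ranks within a list. Start values below 0 (15 peaks) were set to 0.

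Gene positions came from RefSeq GRCm38.p6, the assembly behind mm10. A locus was the gene with 10 kb on each side, an overlap was 1 bp or more, and covered length was the locus sequence under peaks. Computations used Python 3.11.15, numpy 2.4.6, pandas 2.3.3 and scipy 1.17.1. Covered length was compared by two-sided exact permutation over 70 assignments. Detection was compared by a conditional exact test with library odds from a Rasch model fitted over all loci or regions held by 1 to 7 libraries. Both were adjusted by the Benjamini-Hochberg method over all features, with a threshold of 0.05. The conditional exact test was tried on simulated data, and the permutation test on constructed values with a known answer. The labels do not tie libraries to separate animals, so p-values describe the spread between libraries, which may be technical. Members and lists were chosen with earlier results of these data known. The text names the NFI genes and their regions, the 3 most similar genes of each, and some of the up to 3 members of each list found in the most and in the fewest libraries.

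Same-numbered libraries of the genotypes deviated together from their group means over all loci (r = 0.251, 0.320, 0.409 and 0.701 for replicates 1 to 4). The numbers were treated as pairs in an alternative. Pairs of unlike number within the long or the short lists had r from 0.310 to 0.588, so these values do not single out same-numbered libraries. Other alternatives changed the locus window, list length, score threshold, overlap, merging, scale and test, or left out each library.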

Additional observations from a re-analysis of the deposited data

How the results depend on the processing

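No difference between genotypes passed a test at any NFI locus under the alternatives run, and the counts of called genes and regions stayed at 0 in all 15 and 14 alternatives. The direction of the difference in covered length (knock-in minus wild type) was not stable. As reported it was -346 bp at Nfia, 355.8 bp at Nfib, 1150 bp at Nfic and 2639 bp at Nfix. Leaving out each library in turn gave -1246 to 555 bp at Nfia, -574.5 to 1397 bp at Nfib, -185 to 2326 bp at Nfic and -1080 to 5865 bp at Nfix. The sign turned in 4 of the 8 cases each at Nfia and Nfib and in 1 each at Nfic and Nfix. With lists of equal length it turned at Nfia (381.8 bp) and Nfic (-326.5 bp), and with the upper part of each list at Nfia (338 bp) and Nfic (-577 bp). Within replicates 3 and 4 it was 203 bp at Nfia. The cause was not tested.

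With the replicate number as a block the differences were by construction the same (-346, 355.8, 1150 and 2639 bp), with exact permutation p of 0.75, 0.5, 0.5 and 0.25. The lowest attainable p was 0.125 at Nfia, 0.25 at Nfib, 0.5 at Nfic and 0.25 at Nfix, since pairs with a difference of 0 raise it, so the block could give no call at these genes. It called 0 genes and 0 regions over all features and changed no call. Peak lists without read counts limit all values, since a region under the threshold of a short list cannot be told from one without the mark.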
